A study of Mus musculus with 24 samples.

Results

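The Plcg2 line is taken here as the 12 cortex libraries labelled Plcg2KO or Plcg2HET, which were set against the 12 libraries labelled WT or Trem2KO, out of 24 libraries in all. Every mouse carried 5xFAD, a set of human transgenes under a neuronal promoter that gives amyloid plaques, and was 7.5 months old. WT mice were wild type at Trem2 and Plcg2, Trem2KO mice lacked Trem2, Plcg2KO mice were homozygous for a Plcg2 knockout and Plcg2HET mice were labelled heterozygous for it, with 6 mice per genotype. There were 4 males and 2 females in Plcg2KO, and 3 of each sex in every other genotype, which leaves 7 males and 5 females in the line against 6 and 6. Whole cortex was measured by RNA-seq, 1 library per mouse, and no mice without 5xFAD were analysed here. The allele, the breeding scheme, the hour of collection and any cohort or sequencing run were not given in the sources used here. The line and any such cohort, housing or collection difference cannot be told apart.

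Plcg2 encodes a phospholipase that acts below immune receptors of microglia, TREM2 among them, and a gene that depends on it would be set apart in the homozygous mice. Described here are genes that stood apart in both genotypes of the Plcg2 line, with the glucocorticoid response read first. Corticosterone, the main stress hormone of mice, enters brain cells and binds the glucocorticoid receptor, which is held by heat shock proteins and FKBP chaperones until the hormone arrives. The receptor then moves to the nucleus, binds short palindromic DNA elements or single half-sites, and raises genes such as Fkbp5, Sgk1, Tsc22d3 and Zbtb16. Corticosterone follows a daily rhythm, and the clock gene Per2 and the metallothioneins Mt1 and Mt2 also respond to the hormone in many tissues.

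The libraries held 36.3 to 83.0 M counts each, and 16316 of 24421 genes had enough counts to be tested. Plcg2 was at 0.739 to 1.20 CPM (counts per M counts of a library) in Plcg2KO, against 7.73 to 15.2 in WT and 9.32 to 14.7 in Trem2KO. In the libraries labelled Plcg2HET it ran from 5.89 to 19.8 CPM, a log2 difference from WT of 0.02 (SE 0.17, adjusted p = 0.951), so its mRNA level did not bear out the heterozygous label. Directions drawn from Plcg2HET below therefore hold for the libraries labelled so. Pooled over both genotypes, Plcg2 itself was not called (-0.85 on the log2 scale, SE 0.47, adjusted p = 0.435). Rn45s, a ribosomal RNA precursor, took over 5% of counts in 3 libraries (Plcg2HET F3 and F1, and WT F1) and at most 3.5% elsewhere.

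Promoters were read for the glucocorticoid genes described below, because the receptor's element can be seen in the letters of one of them. The windows are RefSeq's, on GRCm38.p6, from 250 bases before to 50 bases after an annotated start. Among the 14 glucocorticoid-induced genes that rose in the line, 12 had windows in the table, and Zbtb16 and Rasd1 did not. Both strands were searched for the half-site AGAACA and for the palindrome made of AGAACA, 3 bases of any kind and TGTNCT. The palindrome was in 1 of the 22 windows of these genes, that of a start of Sgk1 at chr10:21993640-21993939 on the plus strand, and in 0.0396% of the 32851 promoter windows of the table. The half-site alone, which each palindrome also contains, was in 7 of the 22 windows, in 4 of the 12 genes, and in 19.0% of all windows, so its presence there is common. In the Sgk1 window the capitals mark the palindrome.
Sgk1: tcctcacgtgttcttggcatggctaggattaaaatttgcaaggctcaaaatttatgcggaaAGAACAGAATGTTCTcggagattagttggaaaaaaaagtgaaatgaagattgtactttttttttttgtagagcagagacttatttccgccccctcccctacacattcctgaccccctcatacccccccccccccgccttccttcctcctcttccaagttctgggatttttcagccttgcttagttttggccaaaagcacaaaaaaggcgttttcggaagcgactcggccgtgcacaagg
Mt1 and Mt2 lie next to each other on chromosome 8 and are known targets of both the glucocorticoid receptor and the metal-sensing factor MTF1. Their windows, chr8:94178839-94179138 and chr8:94172368-94172667, both on the plus strand, are shown with capitals at matches to the metal response core, searched as TGCACNC or TGCGCNC on both strands. The core was matched 3 times in Mt1 and 4 times in Mt2. Of all windows, 25.7% held at least 1 match, 1.97% at least 3 and 0.518% at least 4.
Mt1: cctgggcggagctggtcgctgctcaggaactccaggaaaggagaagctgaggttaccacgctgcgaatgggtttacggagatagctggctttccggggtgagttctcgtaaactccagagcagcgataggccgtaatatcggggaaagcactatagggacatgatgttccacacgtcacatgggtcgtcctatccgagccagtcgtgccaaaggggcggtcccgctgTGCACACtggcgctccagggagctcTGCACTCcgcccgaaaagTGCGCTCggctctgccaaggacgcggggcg
Mt2: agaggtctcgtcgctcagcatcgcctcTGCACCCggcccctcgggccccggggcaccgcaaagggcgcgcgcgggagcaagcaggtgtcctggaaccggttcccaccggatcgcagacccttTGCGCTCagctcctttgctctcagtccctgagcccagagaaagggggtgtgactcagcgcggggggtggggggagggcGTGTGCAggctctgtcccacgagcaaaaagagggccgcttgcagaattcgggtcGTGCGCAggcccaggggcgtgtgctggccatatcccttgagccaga
These matches describe the letters only, and whether the receptor or MTF1 was bound there was not measured.

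The pooled comparison called 248 genes at an adjusted p under 0.05. Of the 16316 tested genes, 129 (0.791%) were higher and 119 (0.729%) lower in the Plcg2 line. The changes were small, with a median absolute log2 fold change of 0.43 among called genes and 7 genes beyond 2-fold. Single libraries moved the count of calls, to 130 without Trem2KO M1, 138 without Plcg2HET F2, 150 and 152 without WT F2 and WT M3, 157 without Plcg2HET M3 and 426 without Plcg2HET M2. In 247 of the 248, all 4 single differences (Plcg2KO and Plcg2HET, each minus WT and minus Trem2KO) had the sign of the line difference. A gene was termed line-following when each of those 4 differences also had an unadjusted p under 0.05, a rule built on the same libraries and therefore a description. It held for 58 higher genes (0.355% of genes tested) and 60 lower genes (0.368%), 118 in all, against 75 without Trem2KO M1 and 189 without Plcg2HET M2. Of the 248 called genes, 62 also differed between Plcg2KO and Plcg2HET, a comparison that called 35.2% of all genes tested. Of the 118 line-following genes, 108 were not called between Plcg2KO and Plcg2HET, 6 lay farther out in Plcg2HET and 4 farther out in Plcg2KO. Trem2KO against WT called 15.7% of genes tested and 5 of the 118. The line fit and the 4 differences select against genes that differ within either side. The low counts of such genes among the 118 thus follow in part from the selection.

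**Figure D1:**
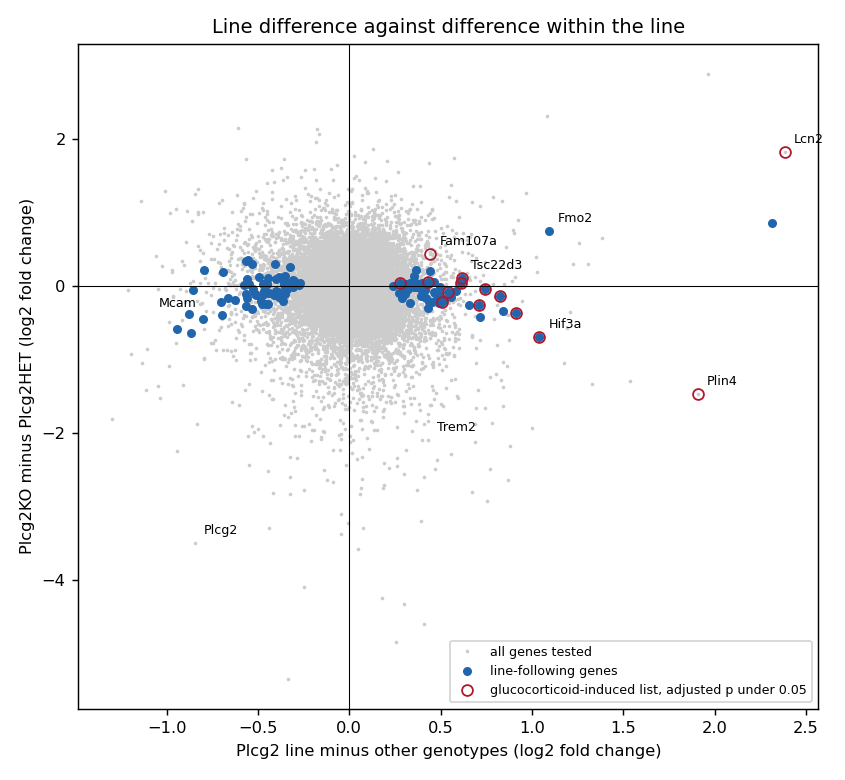
Each point is 1 of 16316 tested genes, placed by its log2 fold change between the Plcg2 line and the other genotypes (horizontal axis) and between Plcg2KO and Plcg2HET (vertical axis). The 118 line-following genes (blue) lie mostly near 0 on the vertical axis, by their selection in part, while Plcg2 and Trem2 lie far below it, and the 14 called glucocorticoid-induced genes (red circles) all lie to the right.

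Among the 39 genes of a list of glucocorticoid-induced genes, all tested, 14 rose in the Plcg2 line (35.9%, beside 0.791% of all genes) and 0 fell. The 14 were Tsc22d3, Zbtb16, Fkbp5, Sgk1, Mt1, Mt2, Hif3a, Plin4, Rasd1, Cdkn1a, Sult1a1, Fam107a, Gjb6 and Lcn2. Over the whole list, 36 of 39 log2 fold changes were positive and their median was 0.30, beside 0.01 over all genes tested. Of the 14, 11 were line-following, all but Plin4, Fam107a and Lcn2. That rule takes unadjusted p-values. At an adjusted p under 0.05, Tsc22d3, Zbtb16, Sgk1, Mt1 and Mt2 were called in every single difference. Fkbp5, Hif3a, Rasd1, Cdkn1a, Sult1a1 and Gjb6 were not. For Plcg2KO against Trem2KO, for example, the adjusted p was 0.0996 for Fkbp5 and 0.106 for Hif3a. Taken within 1 sex, each of the 14 was higher in the line in males (log2 fold changes 0.38 to 2.73) and in females (0.16 to 1.96), but neither sex alone gave a called gene (0 of the 16316 genes of the main filter in each, with 1062 at an unadjusted p under 0.05 in males and 1471 in females). The interaction of line with sex called 0 genes in edgeR and 0 in DESeq2, with 362 at an unadjusted p under 0.05 in edgeR.

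**Figure D2:**
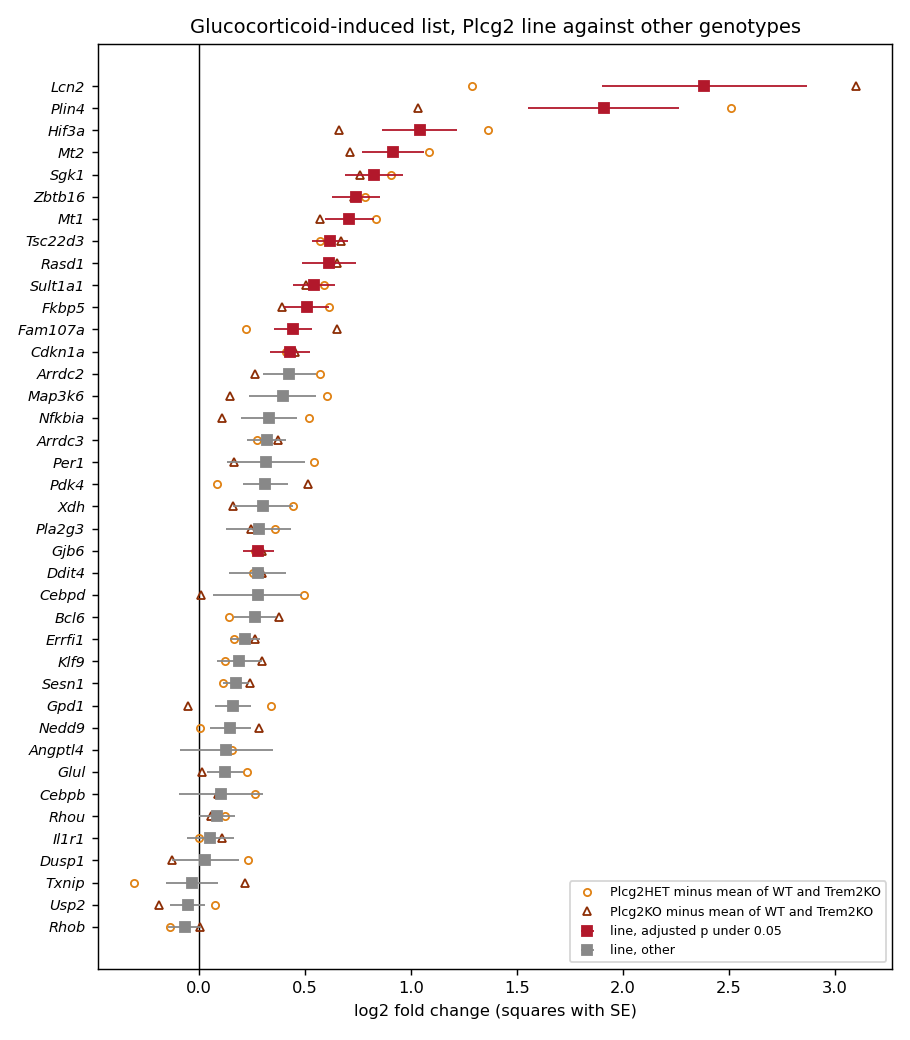
Squares with bars give the log2 fold change and SE of the Plcg2 line against the other genotypes for the 39 glucocorticoid-induced genes, red where the adjusted p was under 0.05. Circles and triangles give Plcg2HET and Plcg2KO, each against the mean of its differences from WT and Trem2KO. A reader should see 14 red squares, all to the right of 0, and 3 of 39 squares to its left.

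The best separated member was Tsc22d3, whose product GILZ carries anti-inflammatory actions of glucocorticoids (chrX:140539529-140600522, minus strand, mm10). Its lowest, median and highest levels were 49.3, 51.5 and 55.2 CPM in WT and 43.5, 55.9 and 63.0 in Trem2KO. They were 67.1, 78.0 and 90.8 CPM in Plcg2HET and 63.3, 82.7 and 104 in Plcg2KO. All 12 libraries of the line thus lay above all 12 others, if narrowly at the edge (63.3 against 63.0 CPM). The log2 fold change was 0.62 (SE 0.08, adjusted p = 0.00045). Tsc22d3 was the only one of 16316 genes with no overlap upward (0.00613%), and 2 genes, Mcam and Fjx1, had none downward (0.0123%).

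Zbtb16, which encodes the transcription factor PLZF (chr9:48654297-48835945, minus strand), ran from 21.9 to 29.1 CPM in WT (median 27.1) and from 31.8 to 39.4 in Trem2KO (median 33.9). It ran from 38.7 to 62.2 CPM in Plcg2HET (median 52.9) and from 38.3 to 69.4 in Plcg2KO (median 48.8), with 10 of 12 libraries of the line above every other library. The log2 fold change was 0.74 (SE 0.11, adjusted p = 0.00196). Trem2KO also stood above WT (log2 difference 0.42, adjusted p = 0.0375), so the rise was larger against WT (0.94 for Plcg2KO, 0.99 for Plcg2HET) than against Trem2KO (0.52 and 0.57). Fkbp5, the chaperone that feeds back on the receptor (chr17:28398753-28486149, minus strand), ran from 28.4 to 40.4 CPM in WT (median 37.8) and 36.3 to 42.3 in Trem2KO (median 40.6). It reached 39.8 to 66.9 CPM in Plcg2HET (median 64.7) and 33.8 to 64.6 in Plcg2KO (median 48.8). In the line, 10 of 12 libraries lay above every other library, and Plcg2KO F1 at 33.8 CPM was the lowest. The log2 fold change was 0.51 (SE 0.10, adjusted p = 0.0124).

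Sgk1, a kinase that regulates ion channels and transporters (chr10:21882184-21999902, plus strand), holds the palindrome in 1 of its 6 promoter windows, the window printed above. It ran from 60.0 to 77.1 CPM in WT (median 63.1) and from 63.1 to 133 in Trem2KO (median 81.4). It ran from 104 to 179 CPM in Plcg2HET (median 141) and from 93.9 to 200 in Plcg2KO (median 113). The groups overlapped through Trem2KO F1 at 133 CPM, above which lay 6 of the 12 libraries of the line. The log2 fold change was 0.83 (SE 0.13, adjusted p = 0.00196), and Plcg2KO and Plcg2HET did not differ by the test (log2 difference -0.15, SE 0.18, adjusted p = 0.55).

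The metallothioneins, small proteins that bind zinc and copper, rose in both genotypes of the line, with overlap between groups. Mt1 ran from 96.2 to 180 CPM in WT (median 125), 99.5 to 135 in Trem2KO (median 126), 126 to 302 in Plcg2HET (median 248) and 157 to 258 in Plcg2KO (median 163). Its log2 fold change was 0.71 (SE 0.11, adjusted p = 0.00196). Mt2 ran from 65.5 to 125 CPM in WT (median 75.1), 55.7 to 106 in Trem2KO (median 81.8), 89.0 to 233 in Plcg2HET (median 201) and 112 to 173 in Plcg2KO (median 118). Its log2 fold change was 0.91 (SE 0.15, adjusted p = 0.00196). The 2 genes are close copies, and the rule for reads that match both was not given in the sources used here. The lowest Plcg2HET value of each, 126 and 89.0 CPM, was in Plcg2HET M3.

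**Figure D3:**
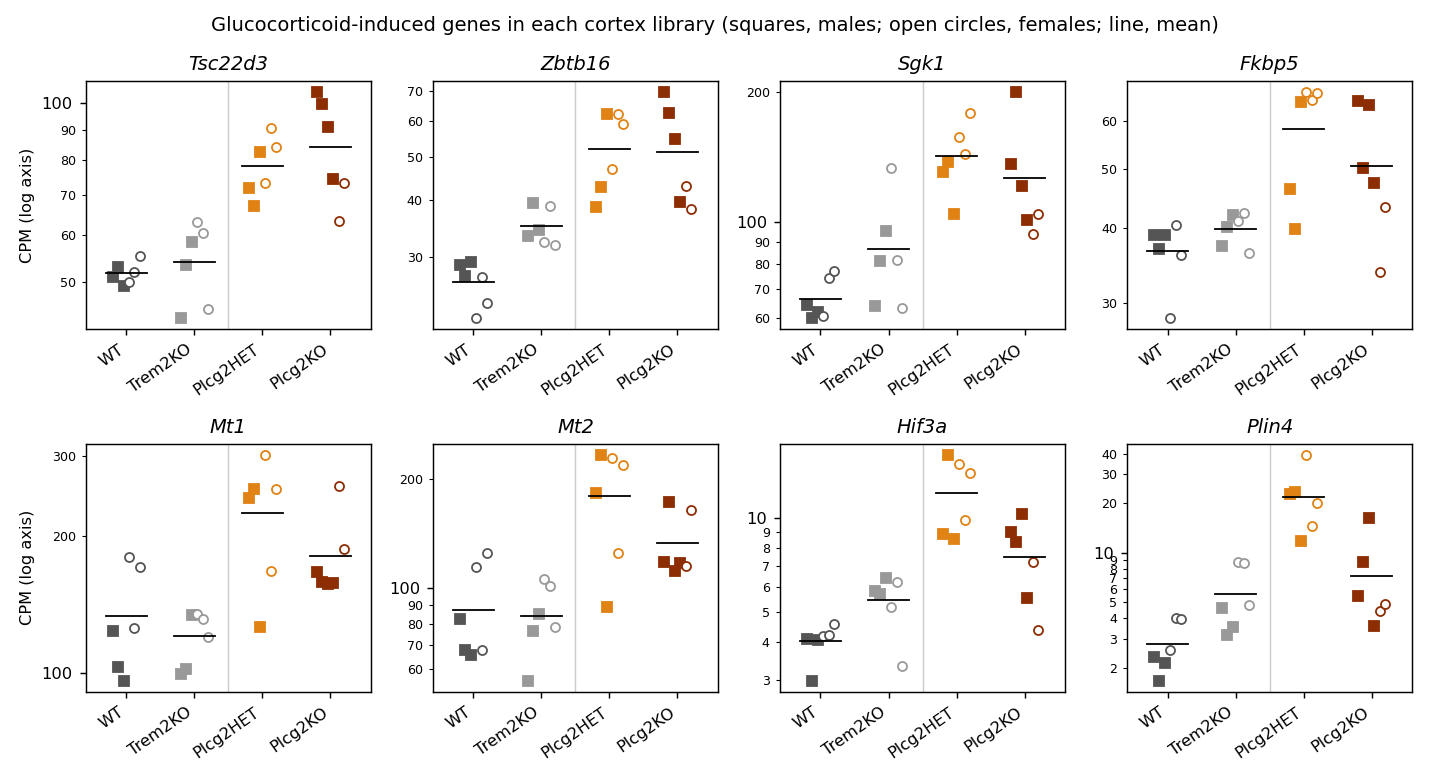
Each point is the level of a gene in 1 library, in CPM on a log axis, with squares for males, open circles for females and a line at the group mean (6 libraries per genotype). Tsc22d3 shows 2 bands with no overlap, while Hif3a and Plin4 are highest in the libraries labelled Plcg2HET and Plin4 in Plcg2KO overlaps Trem2KO.

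Other members depended on which genotype of the line was read. Hif3a, a hypoxia-inducible factor subunit that glucocorticoids raise (chr7:17030993-17062427, minus strand), ran from 2.99 to 4.54 CPM in WT and 3.35 to 6.41 in Trem2KO. It ran from 8.59 to 16.0 CPM in Plcg2HET and 4.37 to 10.3 in Plcg2KO, and Plcg2KO was called below Plcg2HET (log2 difference -0.70, SE 0.19, adjusted p = 0.00702). The pooled log2 fold change was 1.04 (SE 0.18, adjusted p = 0.00291). Plin4, which coats lipid droplets (chr17:56100591-56109802, minus strand), stood at a pooled difference of 1.91 on the log2 scale (SE 0.35, adjusted p = 0.00761) but was not line-following. Its medians were 2.44 CPM in WT, 4.70 in Trem2KO, 21.3 in Plcg2HET and 5.15 in Plcg2KO, and the difference of Plcg2KO from Trem2KO was 0.54 on the log2 scale. Its gene span overlaps that of Hdgfrp2, and Rasd1 overlaps Med9. Fam107a, an actin-binding stress-response gene of astrocytes, and Lcn2, a secreted iron-carrier binding protein, went the other way, farther out in Plcg2KO. Neither was line-following. Plcg2HET was not called apart from WT in Fam107a (log2 difference 0.09, adjusted p = 0.447) or Lcn2 (0.82, adjusted p = 0.343). Against Trem2KO, Plcg2HET was called higher in Fam107a (0.35, adjusted p = 0.00264) and not in Lcn2 (1.76, adjusted p = 0.0508). Fam107a had medians of 408 CPM in WT, 346 in Trem2KO, 443 in Plcg2HET and 581 in Plcg2KO, and a pooled difference of 0.44 on the log2 scale (SE 0.09, adjusted p = 0.0108). Lcn2 was near the detection limit, at 0 to 0.375 CPM in the other genotypes and 0.159 to 2.30 in the line, so its log2 fold change of 2.38 (SE 0.48) rests on few reads.

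Rasd1, a small GTPase known as dexamethasone-induced, had a line difference of 0.61 (log2, SE 0.13, adjusted p = 0.0136), with medians going from 2.92 CPM in WT and 4.10 in Trem2KO to 5.63 in Plcg2HET and 5.56 in Plcg2KO. Cdkn1a, the cell cycle inhibitor p21, rose by 0.43 (SE 0.09, adjusted p = 0.0178) and Sult1a1, a sulfotransferase, by 0.54 (SE 0.10, adjusted p = 0.00644), both on the log2 scale. Gjb6, the astrocyte gap junction protein connexin 30, was the member nearest the threshold, at 0.28 (SE 0.07, adjusted p = 0.0404), and its call was lost in 19 of 24 fits that left out 1 library. Just outside it were Arrdc3 (0.32, adjusted p = 0.0737) and Arrdc2 (0.43, adjusted p = 0.0801). Well-known members such as Per1 (0.32, adjusted p = 0.449), Klf9 (0.19, adjusted p = 0.426), Ddit4 (0.28, adjusted p = 0.342) and Dusp1 (0.03, adjusted p = 0.966) were not called in the pooled comparison.

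Counted in each library, between 8 and 14 of the 14 genes lay above their 24-library median in the Plcg2 line and between 0 and 5 in the other genotypes. The 14 were called on these libraries, so that count is a description. The list was also read in each single comparison, which share control libraries. Plcg2KO against WT called 16 members higher and 0 lower (all genes, 5.44% higher and 7.63% lower). Plcg2KO against Trem2KO called 14 higher and 1 lower (7.63% and 8.82%). Plcg2HET against WT called 18 and 0 (10.9% and 7.13%), and Plcg2HET against Trem2KO 17 and 1 (9.28% and 6.27%).

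Of 16 tested genes for the receptors, their chaperones and cofactors, 0 were called in the pooled comparison, which averages Plcg2KO and Plcg2HET. Nr3c1, the glucocorticoid receptor, stood at 0.13 on the log2 scale (SE 0.10, adjusted p = 0.628), Nr3c2, the mineralocorticoid receptor, -0.05 (SE 0.13, adjusted p = 0.915), and Fkbp4, a receptor chaperone, 0.04 (SE 0.08, adjusted p = 0.89). Within the line, 7 of the 16 differed between Plcg2KO and Plcg2HET (35.2% of all genes did), 3 higher and 4 lower in Plcg2KO. Nr3c2 was higher in Plcg2KO (log2 difference 0.53, SE 0.15, adjusted p = 0.00886), as was Hsd11b1, which regenerates active corticosterone (0.60, SE 0.13, adjusted p = 0.0013), and Fkbp4 was lower (-0.32, SE 0.09, adjusted p = 0.00813). Hsd11b1 was also lower in Plcg2HET than in WT (-0.45, adjusted p = 0.0192) and Trem2KO (-0.52, adjusted p = 0.00733). Of 8 genes of the corticotropin-releasing hormone system, 0 were called, and only 3 had positive values. Corticosterone itself was not measured.

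Clock genes were read next because corticosterone and cortical clock genes both vary over the day. Of 23 clock genes, 2 rose (8.7%, beside 0.791% of all genes) and 0 fell, with a median log2 fold change of 0.15. Per2, a core repressor of the clock (chr1:91415982-91459328, minus strand), ran from 22.9 to 38.7 CPM in WT (median 31.2) and 23.7 to 46.4 in Trem2KO (median 30.1). It ran from 50.2 to 69.5 CPM in Plcg2HET (median 57.6) and 30.3 to 54.1 in Plcg2KO (median 45.6). Its log2 fold change was 0.72 (SE 0.13, adjusted p = 0.00644), all 6 Plcg2HET libraries lay above all 12 libraries of the other genotypes, and Plcg2KO overlapped them. Bhlhe40, a clock repressor that also answers to neuronal activity, rose by 0.34 (SE 0.09, adjusted p = 0.0454), a call lost in 18 of those 24 fits. The rest of the loop was not called in the pooled comparison, which averages Plcg2KO and Plcg2HET. As pooled log2 fold changes, Cry1 stood at 0.31 (adjusted p = 0.0949), Cry2 at 0.31 (adjusted p = 0.163), Arntl at 0.12 (SE 0.08), Clock at 0.24 (SE 0.14), Nr1d1 at 0.05 (SE 0.17), Dbp at 0.09 (SE 0.14) and Per3 at -0.03 (SE 0.09). Against WT, Plcg2HET was called higher for Per1 (0.96, adjusted p = 0.00174), Cry2 (0.76, adjusted p = 2.66e-05), Nfil3 (0.73, adjusted p = 0.00126), Dbp (0.59, adjusted p = 0.00778) and Nr1d1 (0.60, adjusted p = 0.0366). Of these, only Cry2 (0.32) and Nfil3 (0.41) were called higher in Plcg2HET than in Trem2KO. Only Per1 (0.59) and Cry2 (0.27) of them were called higher in Plcg2KO than in WT. Per1 differed between Trem2KO and WT (log2 difference 0.84, adjusted p = 0.00444), and Cry2 did too (0.44, adjusted p = 0.00166), so clock genes also differed between the 2 genotypes outside the line. Since the labels hold no hour of collection, its part in these values was not tested.

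**Figure D4:**
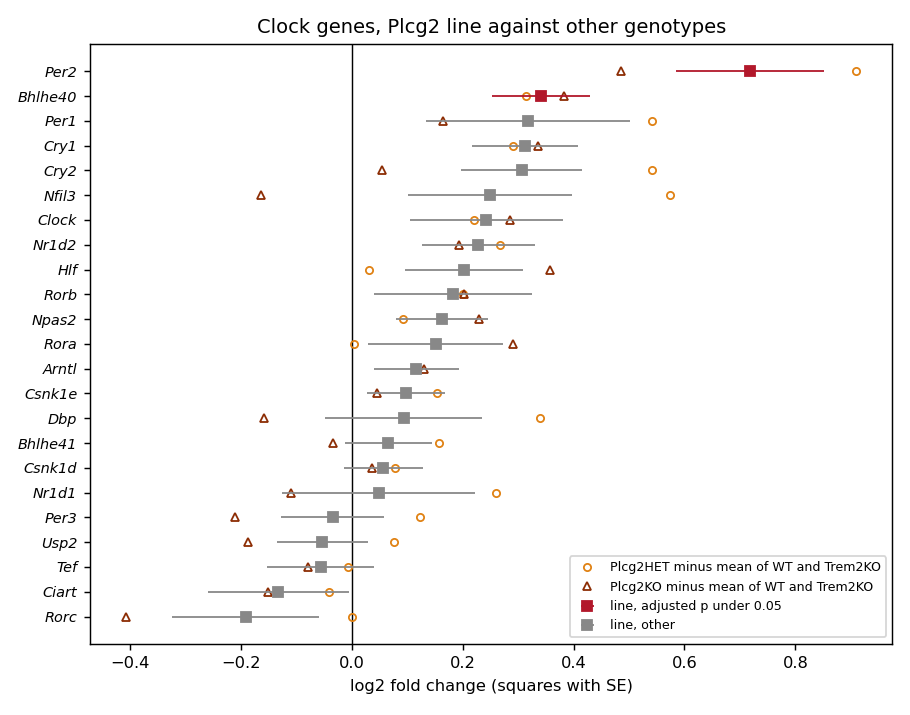
Squares with bars give the log2 fold change and SE of the Plcg2 line against the other genotypes for 23 clock genes, red for Per2 and Bhlhe40, the 2 with an adjusted p under 0.05. Circles and triangles give Plcg2HET and Plcg2KO against the mean of their differences from WT and Trem2KO, which part most for Nfil3, Dbp, Cry2 and Per2.

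Other stress and metabolic lists held few called members, all of them higher, and their shares stand beside 0.791% of all genes called higher. Heat shock genes had 1 called of 20 (5%), Chordc1, an HSP90 cochaperone (log2 fold change 0.42, SE 0.11, adjusted p = 0.0413), a call lost in 16 of the 24 fits. In that list 20 of 20 values were positive (53.2% over all genes tested), with a median of 0.19. Immediate early genes had 1 called of 20 (5%), Egr1 (0.59, SE 0.13, adjusted p = 0.0158), and 16 of 20 positive values with a median of 0.21. The hypoxia list had 3 of 16 (18.8%), namely Hif3a, P4ha1 (lost in 6 of the 24 fits) and Adm (lost in 3, those without WT M3, WT F2 or Trem2KO M1). The insulin and FOXO list had 1 of 14 (7.14%, Foxo1), and the fasting list 1 of 23 (4.35%, Plin4). Chordc1, Egr1, P4ha1 and Foxo1 were not line-following. Egr1 in Plcg2KO stood 0.23 on the log2 scale above Trem2KO (unadjusted p = 0.122). P4ha1 in Plcg2KO was near the WT level (log2 difference 0.01, SE 0.10) and below Plcg2HET (-0.47, adjusted p = 0.00124). Foxo1 had medians of 75.3 CPM in Plcg2HET, 50.6 in Plcg2KO, 51.7 in WT and 48.2 in Trem2KO, and its call was lost in 18 of the 24 fits. The unfolded protein, thyroid response, temperature and C57BL/6 substrain lists had 0 called. Positive values numbered 18 of 19 in the unfolded protein list (median 0.15), 19 of 23 in the fasting list and 11 of 14 in the insulin and FOXO list. They numbered 8 of 16 for hypoxia, 6 of 15 for thyroid response, 4 of 6 for temperature and 7 of 8 for the substrain list.

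Among the remaining genes that rose, Fmo2, a flavin monooxygenase, had the largest rise of the line-following genes whose mean level was above the lowest range (1.09 on the log2 scale, SE 0.18, adjusted p = 0.00196, chr1:162875047-162898712, minus strand). Its medians were 2.03 CPM in WT, 2.79 in Trem2KO, 4.07 in Plcg2HET and 6.84 in Plcg2KO, and Plcg2KO was called above Plcg2HET (log2 difference 0.74, SE 0.18, adjusted p = 0.00245). Mfsd2a, the lysolipid transporter of the blood-brain barrier, rose by 0.66 (SE 0.10, adjusted p = 0.00196), from medians near 10.1 CPM in Trem2KO and, in WT, values of 8.12 to 11.9, to medians of 17.7 in Plcg2HET and 14.9 in Plcg2KO, with 10 of 12 libraries of the line above all others. Mertk, a phagocytic receptor of microglia and astrocytes, rose by 0.35 (SE 0.08, adjusted p = 0.0184). Ttr, the choroid plexus transthyretin, rose by 2.31 (SE 0.44, adjusted p = 0.00703). Its means were 0.372 CPM in WT, 0.434 in Trem2KO, 1.47 in Plcg2HET and 2.65 in Plcg2KO. Its levels were low, at 0.0691 to 1.08 CPM in the other genotypes and 0.243 to 5.68 in the line, with 8 of 12 libraries of the line above all others. Of the choroid and ependymal markers, 2 of 11 tested were called, and their summed level ran from 22.3 to 35.1 CPM in the line and 22.4 to 30.6 outside it. The part of that tissue in the result was not tested.

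Among genes lower in the line, the smallest p belonged to Mcam (CD146, an adhesion molecule of endothelial and mural cells, chr9:44134658-44142726, plus strand). Mcam ran from 16.3 to 22.3 CPM in WT (median 19.5) and 17.3 to 20.7 in Trem2KO (median 19.7). It ran from 11.4 to 14.7 CPM in Plcg2HET (median 12.4) and 8.49 to 14.8 in Plcg2KO (median 10.1), so all 12 libraries of the line lay below all others. Its log2 fold change was -0.70 (SE 0.09, adjusted p = 0.000196), the smallest p of all genes. Fjx1, named only because its groups did not overlap, stood at -0.53 (adjusted p = 0.00196) and was chosen after its values were seen.

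Of 16 endothelial markers, 3 fell (18.8%, beside 0.729% of all genes), 0 rose and 12 had negative values, with a median log2 fold change of -0.25 beside 0.01 over all genes. Kdr, the main VEGF receptor, ran from 4.62 to 12.3 CPM in WT and 7.00 to 8.51 in Trem2KO, and from 4.96 to 7.64 in Plcg2HET and 4.06 to 6.11 in Plcg2KO. Its log2 fold change was -0.56 (SE 0.12, adjusted p = 0.0185). Slco1a4, a blood-brain barrier transporter, fell by 0.44 (SE 0.10, adjusted p = 0.0185), and Flt1, the decoy VEGF receptor, fell by 0.48 (SE 0.12, adjusted p = 0.0398), a call lost in 14 of the 24 fits. Clec14a, an endothelial lectin outside the list, fell by 0.56 (SE 0.11, adjusted p = 0.0122). Pecam1 (-0.41, adjusted p = 0.0572) and Tek (-0.50, adjusted p = 0.0658) missed the threshold, and Vwf (0.06), Slc2a1 (0.18) and Ly6c1 (0.25) were not negative. Summed endothelial levels ran from 256 to 403 CPM in WT (median 277) and 251 to 362 in Trem2KO (median 312). They ran from 216 to 385 CPM in Plcg2HET (median 348) and 224 to 271 in Plcg2KO (median 249), so the median was not lower in Plcg2HET. Plcg2HET was split, with M3 at 216 and F2 at 231 CPM, and M1, M2, F1 and F3 at 344 to 385. The mural list had 0 called of 12. For the markers that fell, fewer vessel cells and less RNA per cell cannot be told apart in bulk cortex.

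**Figure D5:**
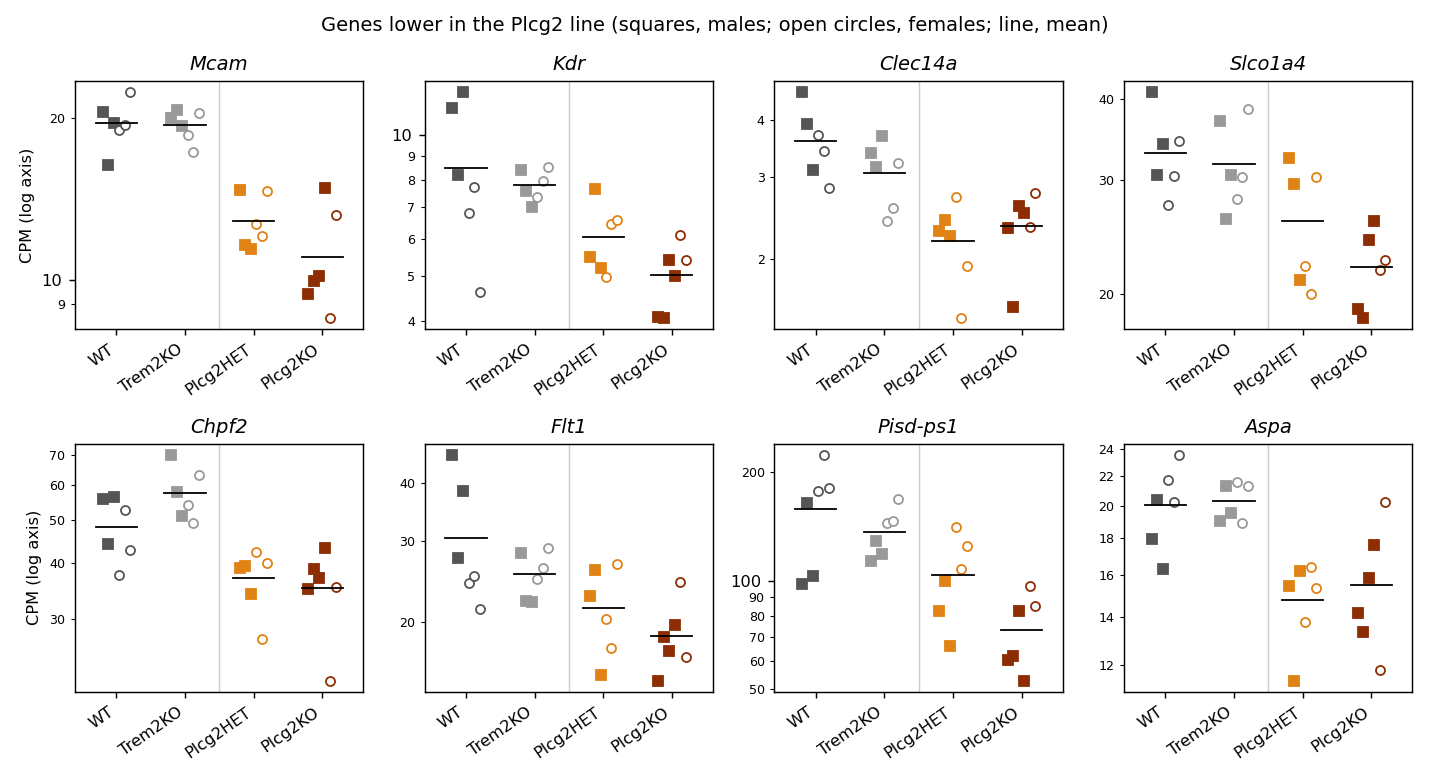
Levels in each library, in CPM on a log axis, of 8 genes lower in the Plcg2 line, with squares for males, open circles for females and a line at the group mean. Mcam in all 12 libraries of the line lies below all 12 others, while Kdr, Flt1 and Pisd-ps1 overlap between groups.

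Further lower genes came from outside the vessel list. Chpf2, a chondroitin synthesis enzyme, fell by 0.57 (SE 0.10, adjusted p = 0.00426), Aspa, the oligodendrocyte enzyme that cleaves N-acetylaspartate, fell by 0.40 (SE 0.08, adjusted p = 0.0122), and Kif26a, Bend3, BC030499 and BC021891 fell by 0.56 to 0.66. Pisd-ps1 and Pisd-ps2 fell by 0.70 and 0.56, but they are copies of 1 gene and Pisd-ps1 overlaps Sfi1, so reads could be shared. Across genes, the line's log2 fold changes had a Spearman correlation of -0.234 with GC content and 0.191 with exon length, given as a description. Each library's deviations from the mean level of each gene were also correlated with GC content. That correlation was -0.566 to -0.285 in Plcg2KO, -0.511 to 0.258 in WT and -0.0764 to 0.520 in Trem2KO. Plcg2HET was split, with M3 at -0.451 and F2 at -0.371, and M1, M2, F1 and F3 at 0.279 to 0.556. With offsets that remove each library's trends with both, 221 of the 248 genes were still called, all 14 glucocorticoid-induced genes among them, while 74 of the 118 line-following genes still met that rule.

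Cell type lists were read to see what else moved with the line. The calls are those of the pooled comparison, which averages Plcg2KO and Plcg2HET. Of 15 pan-microglial genes, 22 genes of disease-associated microglia and 24 interferon genes, 0 were called in each list, and of 16 homeostatic genes only Mertk was. Summed pan-microglial levels ran from 592 to 1022 CPM in Plcg2KO and 1270 to 2252 in Plcg2HET, beside 1138 to 1990 in WT and 750 to 1102 in Trem2KO. Of 16 astrocyte markers, 3 rose (Fmo2, Gjb6 and Etnppl, 18.8% beside 0.791% of all genes), and Etnppl stood at a median of 49.4 CPM in Plcg2KO against 17.9 in Plcg2HET, 17.3 in WT and 17.2 in Trem2KO. Summed astrocyte levels ran from 8695 to 10851 CPM in the line and 8462 to 10666 outside it. Of 14 oligodendrocyte markers 1 (Aspa) fell and 1 thalamic marker of 9 (Tcf7l2, 0.47, SE 0.11, adjusted p = 0.02) rose, while the oligodendrocyte precursor, meningeal, border macrophage, excitatory, inhibitory, striatal and hippocampal lists had 0 called. Summed meningeal levels ran from 175 to 219 CPM in WT and 258 to 298 in Trem2KO. They ran from 211 to 310 CPM in Plcg2HET and 232 to 293 in Plcg2KO. Border macrophage sums ran from 27.9 to 38.0 CPM in WT and 44.7 to 59.0 in Trem2KO. In Plcg2HET they ran from 37.2 to 54.5 CPM and in Plcg2KO from 39.6 to 48.1. Inhibitory sums were at most 1610 CPM in WT and at least 1622 in Plcg2KO. Excitatory and striatal sums overlapped between all genotypes. Within 5 Mb of Plcg2 on chromosome 8, 4 of 77 tested genes were called (5.2%, beside 1.52% of all genes), namely Maf, Mthfsd, Banp and Cbfa2t3. Maf and Cbfa2t3 were line-following (2.6%, beside 0.723%).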

How the data were processed

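Whole-number read counts per gene were deposited by the authors with exon coordinates on mm10, per the file headers, and the submitters' processing notes name STAR 2.7.10a and featureCounts 2.0.3. A further table deposited by the authors held expected counts, TPM and FPKM, per the file headers. TPM and FPKM were not used, and the expected counts, rounded, served only an alternative fit. Whether counting used strand was not given in the sources used here.

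With R 4.3.3 and edgeR 4.0.16, genes passing filterByExpr (minimum count 10, by genotype) were scaled by TMM and fitted with the robust quasi-likelihood model, with line and sex as terms over 24 libraries. A fit with 1 mean per genotype and sex gave the single differences and Plcg2KO against Plcg2HET. P-values were adjusted by Benjamini-Hochberg over 16316 genes, with a threshold of 0.05. CPM are TMM-scaled. Nothing says that libraries share a litter or batch. The line fit has no genotype term. Its p-values are set against a spread between mice that includes differences between the genotypes pooled on each side. A contrast of 4 genotype means, which leaves those differences out of the spread, called 849 genes rather than 248. In the fit with 1 mean per genotype, p-values are set against the spread between mice of a genotype.

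The comparison, the gene lists and the rule for named genes were chosen with earlier results of these data known. Named were Plcg2 and Trem2, the 10 largest rises and falls of line-following genes (average log2 CPM 1 or more), called members of the glucocorticoid list, up to 3 called members of each other list, and clock genes. Members of the glucocorticoid, receptor and endothelial lists that were not called, called genes of lists beyond the rule, and genes near Plcg2, were added after their values were seen. The fit was tested on simulated data. Alternatives were RLE scaling, other count filters, a block by replicate code, no sex term, single sexes, single control or line genotypes, a contrast of genotype means, DESeq2 1.42.0, expected counts, GC and length offsets, and leaving out libraries.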

Additional observations from a re-analysis of the deposited data

Results flagged for a closer look

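Of 416 groups of 6 libraries examined (104 genes in 4 genotypes), 25 held a library whose gap to the nearest other exceeded Dixon's critical value. Chance flags about 1 in 20 groups. In Plcg2KO F1, Mt1 was at 258 CPM (others 157 to 188), Chpf2 was at 21.8 CPM (others 35.1 to 43.3), Csnk1d was at 106 CPM (others 132 to 149), Fkbp4 was at 156 CPM (others 127 to 137), Rhou was at 36.6 CPM (others 44.8 to 50.1), Rhob was at 170 CPM (others 238 to 260), Cdh5 was at 12.6 CPM (others 6.56 to 8.26). In Plcg2KO M2, Clec14a was at 1.57 CPM (others 2.33 to 2.77), Arntl was at 23.9 CPM (others 29.5 to 30.5), Arrdc2 was at 16.6 CPM (others 9.16 to 10.1), Pla2g3 was at 2.78 CPM (others 1.54 to 1.92). In WT M2, Hif3a was at 2.99 CPM (others 4.04 to 4.54), Clock was at 82.3 CPM (others 50.5 to 59.1), Nr3c1 was at 126 CPM (others 89.1 to 101). In WT F1, Fkbp5 was at 28.4 CPM (others 36 to 40.4), Cry1 was at 15.1 CPM (others 20.6 to 22). In Plcg2KO M3, Adm was at 1.48 CPM (others 2.14 to 2.57), Bhlhe41 was at 57.7 CPM (others 71.4 to 79.5). In WT F2, Ttr was at 1.08 CPM (others 0.0691 to 0.311), Ddit4 was at 21.3 CPM (others 34.1 to 38.9). In Trem2KO F3, Hif3a was at 3.35 CPM (others 5.18 to 6.41). In Plcg2HET M2, Rasd1 was at 4.58 CPM (others 5.51 to 5.85). In Plcg2HET M1, Fam107a was at 380 CPM (others 436 to 457). In WT M3, Egr1 was at 433 CPM (others 270 to 320). In Plcg2KO M1, Nr3c2 was at 25.9 CPM (others 29.2 to 31.3).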

How the results depend on the processing

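The line comparison called 248 genes, and that number depended on the fit: 849 as a contrast of 4 genotype means (Plcg2 then -1.71), 552 in DESeq2, 747 with GC and length offsets, 398 without the 3 libraries with over 5% Rn45s and 432 against Trem2KO only. Plcg2HET only gave 1516 (Plcg2 0.0466, reversed, adjusted p = 0.887) and Plcg2KO only 3975 (Plcg2 -3.48). Deviations of same-code libraries correlated at -0.19 to 0.376 (median 0.128), beside a median of 0.078 for 75 other same-sex pairs. Of 24 libraries, 8 were closest to their own code. These values do not settle whether the replicate codes pair mice. With the replicate block 118 genes were called, and with it and the offsets 539. Line-following genes numbered 118. Where a genotype is left out, fewer differences enter the rule and the count is another quantity: 222 against WT only and 432 against Trem2KO only (42 and 58 of the 118 among them), 1429 for Plcg2HET only and 3094 for Plcg2KO only. Under the full rule there were 179 without the Rn45s libraries, 230 with offsets, 207 with offsets and block, while sign alone gave 247 and adjusted p-values 28. Against Trem2KO only, 8 glucocorticoid genes were called. Males only and females only gave 0 line, 0 line-following and 0 glucocorticoid calls (1072 and 1514 genes at an unadjusted p under 0.05 with genes filtered anew within the sex, 1062 and 1471 with the main filter), 1581 and 1664 calls for Plcg2KO against Plcg2HET and 72 and 963 for Trem2KO against WT. Without the Rn45s libraries Plcg2KO against Plcg2HET called 3113. Fewer libraries entered these fits. For the other moves the cause was not tested.

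With each library left out in turn, ranges were 130 to 426 for the line (130 without Trem2KO M1, 138 without Plcg2HET F2, 150 and 152 without WT F2 and M3, 157 without Plcg2HET M3, 426 without Plcg2HET M2), 75 to 189 for line-following (75 without Trem2KO M1, 189 without Plcg2HET M2), 13 to 15 for glucocorticoid genes, 4475 to 7509 for Plcg2KO against Plcg2HET, 1662 to 3025 for Trem2KO against WT, 0 to 0 for line by sex and -1.14 to -0.73 for Plcg2. Of line calls, 52.0% were higher, against 43.8% with no count filter, 43.7% at a mean CPM of at least 1 and 58.8% for Plcg2HET only. In every setting the line-following genes that were tested kept their sign, as did the 14 glucocorticoid genes (13 of 13 tested at a mean CPM of at least 1). No named gene changed sign while called in the main fit or in the other setting. Sign changes of named genes called in neither, such as Plcg2 with Plcg2HET only, were not counted there.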
